A study of Mus musculus with 20 samples.

Results

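The genes described here encode the nuclear subunits of respiratory complexes II to V in mouse liver: succinate dehydrogenase (complex II), the cytochrome bc1 complex (III), cytochrome c oxidase (IV) and ATP synthase (V). They were chosen by symbol alone, as Sdha to Sdhd, Cyc1, every symbol that begins with Uqcr or Atp5, and every Cox symbol numbered 4 to 8 and followed by a letter. The rule found 47 genes among the 18193 that the array measured with a probe set naming exactly 1 gene: 4 of complex II, 9 of complex III, 17 of complex IV and 17 of complex V. Where several probe sets named a gene, the one highest on average across the 20 arrays was used.

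The mice were male C57BL/6J, an inbred laboratory strain. Those on the high-fat diet took 45% of their energy from fat for 4 weeks (n = 10), and those on the low-fat diet 10% (n = 10). All had arrived at 3 weeks of age, spent 1 week on the low-fat diet before the groups were formed, and were killed at 8 weeks after 16 h without food. RNA of each liver went to 1 Affymetrix array, and groups that were also given a maple syrup extract are not analysed here. Because whole liver was measured, fewer cells of a type and less RNA per cell cannot be told apart.

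The respiratory chain sits in the inner mitochondrial membrane. Complex II passes electrons from succinate to coenzyme Q, complex III passes them on to cytochrome c, and complex IV hands them to oxygen; complexes III and IV move protons out of the matrix, and complex V lets them back to make ATP. Complex II is encoded in the nucleus alone, whereas the other complexes join nuclear subunits to a core made from mitochondrial DNA. In the fasted liver this machinery receives electrons from the oxidation of fatty acids and supplies the ATP for glucose production. Several complex IV subunits exist as a general or liver form and a second form known from heart, skeletal muscle, lung or testis.

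The deposited unit is a probe set score that runs like a log2 level, but its differences between arrays are compressed to a different degree in each probe set, so they are no fold changes. Sizes are therefore standardised differences: the high-fat mean minus the low-fat mean, divided by the SD within diets. Values of single mice are given in the same SD units, counted from the low-fat mean of that gene, as the lowest, the median and the highest of 10 mice. A gene was called when its adjusted p in a limma fit across all 18193 genes was below 0.05. In 4 high-fat arrays (mice 1, 4, 5 and 7), spike-in controls stood apart at low scores, and results with and without these arrays are given after the called genes.

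In the livers of high-fat mice, 5 of the 47 genes were lower past the test and 0 were higher. They were Cox7a1, the heart and muscle form of a complex IV subunit; Uqcrh, the hinge protein of complex III; Atp5g1, 1 of 3 genes for the ring-forming subunit c of ATP synthase; Sdhd, a membrane anchor of complex II; and Cox6b2, a testis form of a complex IV subunit. That is 10.6% of these genes, where 3.49% of all genes were called, 1.78% as lower and 1.71% as higher. Among genes with a mean score in the upper part of all genes, 4 of 40 were called, all lower (10%: Uqcrh, Atp5g1, Sdhd and Atp5o), where 8.3% of those genes were called and 4.12% as lower. At an unadjusted p below 0.05, 9 of the 47 were lower and 2 higher, against 8.01% of all genes lower and 8.94% higher.

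Most of the genes that were not called also lay slightly low. The high-fat mean was below the low-fat mean in 36 of the 47 genes (76.6%), against 47.5% of all genes, and the median standardised difference was -0.53, against 0.04 over all genes. This depended on the scaling step used. Centring the standardised arrays changed it little, with 37 of 47 below and a median of -0.56, against 0.01 over all genes. Quantile normalisation changed it more. That step gives every array the same set of values, handed out by rank. A gene then varies only where its rank among all probe sets changes. It left 28 of the 47 genes with the same value on every array, among them Sdhd and Atp5g1. Of the 19 that still varied, 9 lay below, with a median of 0.08 against -0.40 over all genes, where without that step 17 of the same 19 lay below with a median of -0.53. After it, 3 of the 19 were called, all lower (Cox7a1, Cox4i2 and Cox8b), against 7.68% of all genes called lower.

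**Figure D1:**
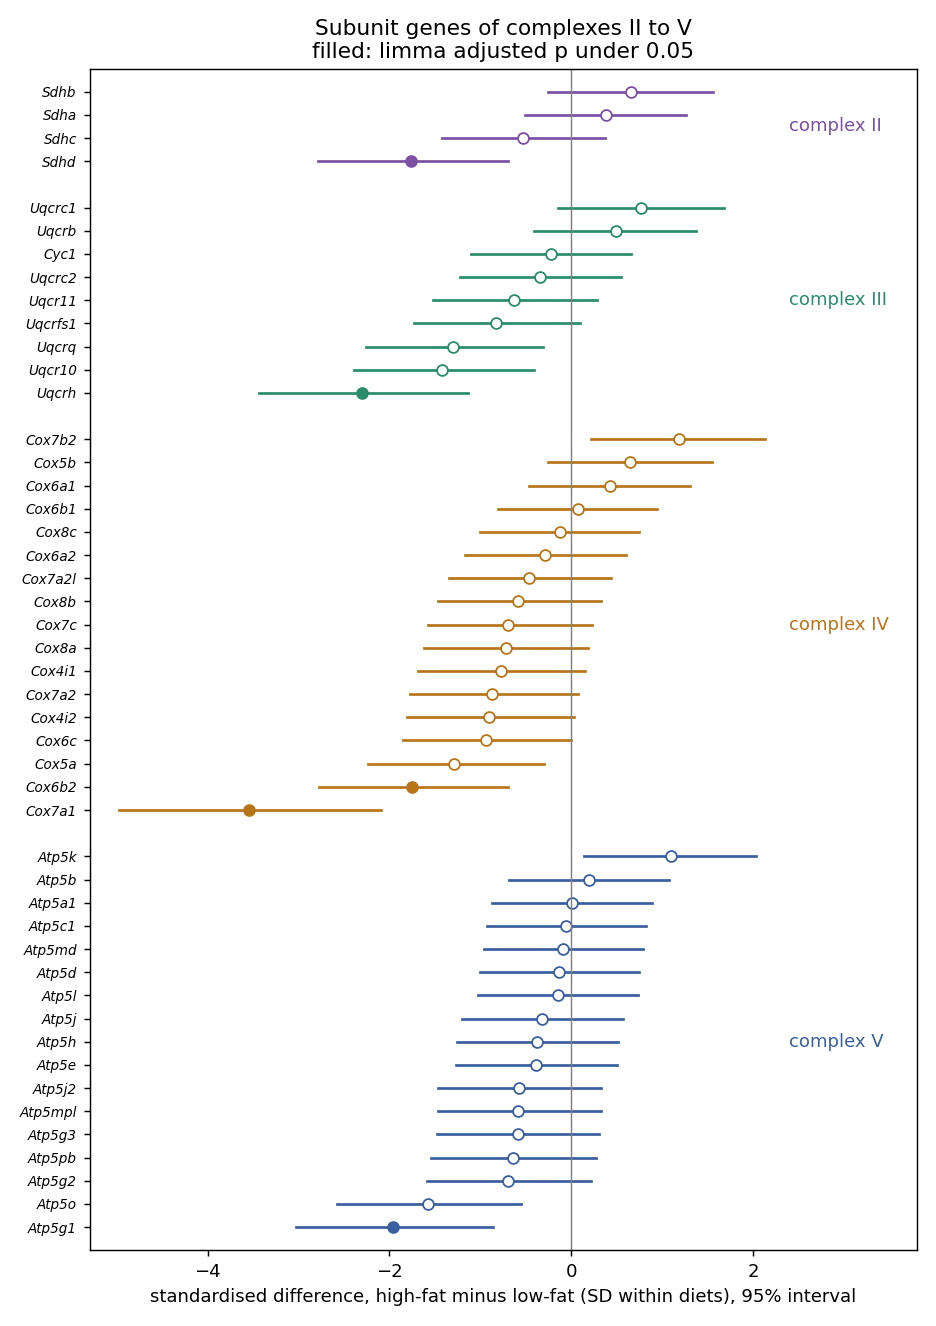
Standardised difference (SD units, high-fat minus low-fat, horizontal axis) of each of the 47 genes, grouped by complex, with bars for the 95% interval; filled points mark the 5 genes past the test. Cox7a1 stands farthest to the left at -3.55, and 36 of 47 points lie left of 0, although after quantile normalisation only 9 of the 19 genes that still varied did.

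Cox7a1 had a deposited score of 6.328 and lies on chromosome 7 from 30184171 to 30186030 (GRCm38.p6). Its values were -4.49, -3.42 and -2.76 SD in high-fat mice, against -1.93, -0.04 and 2.10 SD in low-fat mice. Every high-fat mouse was below every low-fat mouse, which held for no other gene of the 47 and for 0.181% of all genes. The opposite, every high-fat mouse above every low-fat mouse, held for 0 of the 47 and for 0.0934% of all genes. The standardised difference was -3.55 (95% interval -4.98 to -2.09, adjusted p = 0.000167), and it was -3.46 after quantile normalisation (adjusted p = 0.000215). A single probe set measured it.

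Skeletal muscle genes were read beside it, because Cox7a1 is best known from muscle. Of 10 measured, 1 was called, where 3.49% of all genes were called and 1.78% as lower. That was Mylpf, a light chain of fast muscle myosin, at -1.99 (adjusted p = 0.0209), or -0.35 after quantile normalisation (adjusted p = 0.649). Of the 10, 6 lay below the low-fat mean. The 10 had scores of 5.891 to 6.942, and their mean per mouse was -0.93, -0.42 and 0.49 SD in high-fat mice, against -0.55, -0.02 and 0.66 SD in low-fat mice. The part of muscle RNA in the Cox7a1 result was not tested. Ucp1, the uncoupling protein of brown fat, differed by 0.01 (adjusted p = 0.996).

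Uqcrh encodes the acidic hinge protein that helps cytochrome c1 bind cytochrome c, and lies on chromosome 4 from 116066965 to 116075070. Its values were -3.43, -2.43 and -0.45 SD in high-fat mice, against -1.35, 0.05 and 1.77 SD in low-fat mice. Of the high-fat mice, 9 were below every low-fat mouse. The difference was -2.30 (95% interval -3.44 to -1.13, adjusted p = 0.00717), but 0.19 after quantile normalisation (adjusted p = 0.813). The probe set's suffix marks it as able to match more than 1 transcript. The gene's other probe set, without that suffix, gave -1.67, with an adjusted p of 0.0423 where such probe sets were left out and 0.0527 where every probe set was tested.

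Atp5g1 lies on chromosome 11 from 96072793 to 96075694. Its values were -2.83, -1.79 and -1.44 SD in high-fat mice, against -2.09, -0.14 and 2.12 SD in low-fat mice. The groups overlapped through 1 low-fat mouse, while the other 9 were above every high-fat mouse. The standardised difference was -1.96 (95% interval -3.03 to -0.86, adjusted p = 0.0164). A second probe set, at a score of 5.772, gave -0.62.

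Sdhd, on chromosome 9 from 50596340 to 50603849, encodes the small anchor that holds complex II in the membrane and helps form its coenzyme Q site. Scores lay at -3.11, -2.01 and -0.07 SD in high-fat mice, against -2.12, 0.09 and 1.30 SD in low-fat mice. The groups overlapped: 4 high-fat mice were below every low-fat mouse and 6 low-fat mice were above every high-fat mouse. Its difference of -1.76 (95% interval -2.79 to -0.70, adjusted p = 0.0307) sat close to the threshold. Leaving out 1 mouse ended the call in 9 of 20 fits, at adjusted p-values of 0.0504 to 0.0552 (high-fat mouse 1, 4, 5, 6 or 10, or low-fat mouse 3, 6, 9 or 10). An exact Wilcoxon rank sum test, adjusted over all genes, gave 0.0575.

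Cox6b2, on chromosome 7 from 4751792 to 4753094, was measured at a score of 6.706. Its values were -3.16, -1.83 and -0.16 SD in high-fat mice, against -1.65, -0.09 and 1.66 SD in low-fat mice. Each diet had 5 mice outside the range of the other. The difference of -1.75 (95% interval -2.78 to -0.69, adjusted p = 0.0371) was no longer called in 12 of 20 fits without 1 mouse, at 0.0504 to 0.0666 (high-fat mouse 1, 3, 4, 6 or 8, or low-fat mouse 2, 3, 5, 6, 7, 8 or 10). After quantile normalisation it was -1.21 (adjusted p = 0.119).

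**Figure D2:**
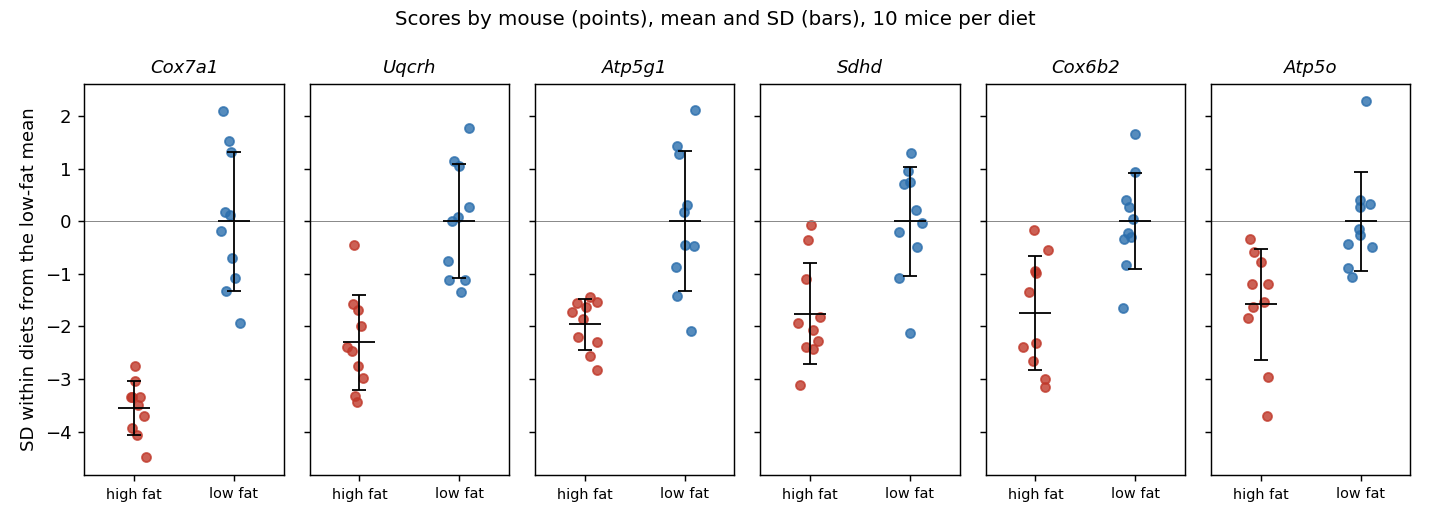
Score of each mouse (SD units from the low-fat mean, vertical axis) for the 5 called genes and Atp5o, which just missed the threshold, with high-fat mice left of low-fat mice, 1 point per mouse, a line at the mean and bars of 1 SD. Of these 6 genes, Cox7a1 alone has no overlap, with high-fat mice from -4.49 to -2.76 and low-fat mice from -1.93 to 2.10.

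The spike-in controls, probe sets named for poly-A RNAs that can be added to a sample, were low in 4 high-fat arrays. The mean of their 24 probe sets was -2.87 to -1.96 SD in high-fat mice 1, 4, 5 and 7 and -0.43 to 0.73 SD in the other 6 high-fat mice, against -0.28 to 0.55 SD in low-fat mice. All 24 had a lower mean in high-fat mice, 10 at an unadjusted p below 0.05, and 0 of all 64 controls passed the adjusted threshold. Without those 4 arrays, 36 of the 47 genes still lay below the low-fat mean and Cox7a1 alone was called, at -3.42 (adjusted p = 0.00699), where 0.506% of all genes were then lower. The others had similar sizes over fewer mice: Uqcrh was -1.99 (adjusted p = 0.0865), Atp5g1 -1.78 (adjusted p = 0.113), Sdhd -1.82 (adjusted p = 0.103) and Cox6b2 -1.82 (adjusted p = 0.119). With the spike-in mean as a covariate and all 20 arrays, 2 of the 47 genes remained called, where 1.05% of all genes were then lower: Cox7a1 at -3.18 (adjusted p = 0.00104) and Uqcrh at -1.91 (adjusted p = 0.0339). Atp5g1 had then an adjusted p of 0.0536, Cox6b2 of 0.0602 and Sdhd of 0.0768. Sizes in this covariate fit are its t statistic for diet, rescaled by the group sizes. They are not the difference of means over the SD within diets.

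The promoters of Sdhd, Uqcrh and Cox7a1 are printed to set a pair of general subunits beside the muscle form that separated the diets. Nuclear respiratory factor 1 (NRF1), ETS family factors such as GABP, and YY1 are known regulators of respiratory chain genes. Each run is the 250 bases before the start of the gene, 5' to 3' on the gene's strand, from RefSeq on GRCm38.p6: Sdhd at chr9:50603850-50604099 on the minus strand, Uqcrh at chr4:116075071-116075320 on the minus strand and Cox7a1 at chr7:30183921-30184170 on the plus strand. Capitals mark matches to the NRF1 motif (GCGC, any base, then TGCGC), the ETS motif (CCGGAAG) or the YY1 motif (AA, any base, then ATGGC) on either strand.
Sdhd: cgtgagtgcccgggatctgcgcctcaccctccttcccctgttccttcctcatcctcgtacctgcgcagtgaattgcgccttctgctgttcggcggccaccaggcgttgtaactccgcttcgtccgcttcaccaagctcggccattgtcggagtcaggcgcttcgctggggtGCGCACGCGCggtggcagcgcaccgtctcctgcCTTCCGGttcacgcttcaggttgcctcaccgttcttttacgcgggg
Uqcrh: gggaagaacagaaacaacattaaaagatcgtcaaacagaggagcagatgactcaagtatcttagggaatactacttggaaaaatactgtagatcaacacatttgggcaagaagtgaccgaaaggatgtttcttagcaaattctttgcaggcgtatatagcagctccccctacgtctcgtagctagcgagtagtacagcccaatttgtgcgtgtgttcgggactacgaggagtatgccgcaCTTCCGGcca
Cox7a1: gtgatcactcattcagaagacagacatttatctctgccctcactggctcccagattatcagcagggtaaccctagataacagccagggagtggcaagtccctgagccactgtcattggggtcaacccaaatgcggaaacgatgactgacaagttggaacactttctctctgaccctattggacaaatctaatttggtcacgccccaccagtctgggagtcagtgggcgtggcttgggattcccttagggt

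Sdhd held an NRF1 match at bases 172 to 181 of the run and a separate ETS match at bases 205 to 211. Uqcrh held an ETS match at bases 241 to 247, and Cox7a1 held none of the 3 motifs. Of the 47 genes, 35 matched a RefSeq window of 300 bases (250 before to 50 after the start). The NRF1 motif was in 10 of these 35 (28.6%), against 5.19% of 27025 genes; the ETS motif was in 13 (37.1%), against 9.93%; and the YY1 motif was in 4 (11.4%), against 6.96%. At least 1 of the 3 was in 22 of the 35 (62.9%), against 19.4% of all genes. Among the 5 called genes, Sdhd and Uqcrh held a match, while Cox7a1, Cox6b2 and Atp5g1 held none in this window. The 4 tissue-restricted complex IV isoforms with a window (Cox6b2, Cox7a1, Cox7b2 and Cox8b) also held none. A match of letters is a description of the window and no measurement of binding.

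Complex II has 4 subunits, and Sdhd alone was called, where 1.78% of all genes were called lower. Sdha, the flavoprotein that oxidises succinate, lay at -2.36, 0.22 and 1.76 SD in high-fat mice, against -1.36, 0.11 and 1.16 SD in low-fat mice, a difference of 0.38 (adjusted p = 0.729). Sdhb, the iron-sulphur subunit, lay at -0.30, 0.84 and 1.74 SD in high-fat mice, against -1.58, 0.08 and 1.99 SD in low-fat mice, a difference of 0.66 (adjusted p = 0.496). For Sdhc, the partner of Sdhd in the membrane, values were -2.33, -0.33 and 0.82 SD in high-fat mice, against -1.28, -0.13 and 1.33 SD in low-fat mice, a difference of -0.53 (adjusted p = 0.636). The catalytic subunits thus had positive differences and the anchors negative ones, with overlapping groups in all 4 genes, but after quantile normalisation Sdhb was 0.85 and Sdhc 0.42, and the other 2 no longer varied. Averaged over the 4 genes, mice lay at -1.63, -0.21 and 0.45 SD on high fat and at -1.17, 0.21 and 0.93 SD on low fat.

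In complex III, 7 of 9 genes lay below the low-fat mean, with a median standardised difference of -0.63, but the 4 that still varied after quantile normalisation all lay above it (Uqcrh, Cyc1, Uqcrc1 and Uqcrc2, at 0.19 to 1.17). The small subunits without redox centres ran from -2.30 to 0.49: besides Uqcrh, they were Uqcr10 at -1.42 (adjusted p = 0.0844), Uqcrq at -1.30 (adjusted p = 0.222), Uqcr11 at -0.63 and Uqcrb at 0.49. Cyc1, the cytochrome c1 that passes electrons to cytochrome c, differed by -0.22, and Uqcrfs1, the Rieske iron-sulphur protein, by -0.83. The core proteins, which face the matrix, differed by -0.34 (Uqcrc2) and 0.77 (Uqcrc1). A second probe set of Uqcrc2, at a score of 10.05, gave -1.08 (adjusted p = 0.232 in the fit of every probe set). The mean of both Uqcrc2 sets gave -1.21 (adjusted p = 0.147). Uqcrc1 was the highest of the complex: its values were 0.01, 0.77 and 2.10 SD in high-fat mice, against -1.73, 0.17 and 1.74 SD in low-fat mice. The groups overlapped, and the interval of that difference ran from -0.15 to 1.68 (adjusted p = 0.399).

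Uqcr10, a small subunit beside cytochrome c1, depended on the probe set. The set with the highest mean lay at -2.96, -1.18 and -0.60 SD in high-fat mice, against -2.08, -0.09 and 1.86 SD in low-fat mice, and was not called. Its other sets, at scores of 9.158 and 10.13, gave -2.72 (adjusted p = 0.00262) and -2.56 (adjusted p = 0.0044) in a fit of every probe set. With the mean of its sets as its value, Uqcr10 was called at -2.72 (adjusted p = 0.00164), and without low-fat mouse 1 its usual set was called at -1.87 (adjusted p = 0.0298).

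Complex IV had 2 calls among 17 genes, both lower, where 1.78% of all genes were called lower. Both were isoforms known from other tissues. The 7 such isoforms (Cox4i2, Cox6a2, Cox6b2, Cox7a1, Cox7b2, Cox8b and Cox8c) had scores of 5.568 to 7.957, and no detection value was used, so whether each stood above background is not known here. After quantile normalisation 8 genes of the complex still varied, of which Cox6a2 and Cox8c lay above the low-fat mean and 6 below. The other 10 subunits had 0 calls, with 7 below the low-fat mean, a median of -0.71 and a range of -1.29 to 0.65. Among them Cox7c scored 6.794, within the range of those isoforms, and its other probe set, at 5.952, gave 0.0027.

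Cox4i1, the general form of the largest nuclear subunit, lay at -1.43, -0.66 and -0.23 SD in high-fat mice, against -2.02, 0.31 and 1.72 SD in low-fat mice, a difference of -0.77 (adjusted p = 0.522). Its lung form Cox4i2 lay at -1.99, -1.16 and 0.47 SD in high-fat mice, against -1.47, -0.15 and 1.69 SD in low-fat mice, a difference of -0.90 (adjusted p = 0.34). All 10 high-fat mice were below the low-fat median for Cox4i1 and 7 were for Cox4i2. After quantile normalisation Cox4i2 was called at -2.21 (adjusted p = 0.00687).

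For subunit 6a, the liver form Cox6a1 lay at -1.01, 0.33 and 1.96 SD in high-fat mice, against -2.22, 0.43 and 1.13 SD in low-fat mice, a difference of 0.43 (adjusted p = 0.729). The heart and muscle form Cox6a2 lay at -1.52, -0.69 and 1.24 SD in high-fat mice, against -1.22, -0.02 and 1.65 SD in low-fat mice, a difference of -0.29 (adjusted p = 0.809). Neither form separated the diets. A second probe set of Cox6a1, at a score of 12.42, gave -0.50, and that of Cox6a2, at 5.995, gave 0.85. Neither was called in the fit of every probe set.

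The subunit 7a genes were all below the low-fat mean, and after quantile normalisation Cox7a2 no longer varied. Cox7a2, the liver form, lay at -1.60, -1.07 and 0.54 SD in high-fat mice, against -3.29, 0.22 and 1.11 SD in low-fat mice, a difference of -0.87 (adjusted p = 0.488). Cox7a2l, which encodes a related protein, lay at -1.68, -0.59 and 0.99 SD in high-fat mice, against -1.77, 0.36 and 1.40 SD in low-fat mice, a difference of -0.46 (adjusted p = 0.687). Both overlapped between diets, unlike Cox7a1.

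Cox8a, the general form of subunit 8, lay at -1.51, -0.74 and 0.48 SD in high-fat mice, against -2.40, 0.28 and 1.93 SD in low-fat mice, a difference of -0.72 (adjusted p = 0.436). Its heart and muscle form Cox8b lay at -1.76, -0.61 and 0.73 SD in high-fat mice, against -2.23, 0.15 and 1.59 SD in low-fat mice, a difference of -0.58 (adjusted p = 0.563). The groups overlapped for both, and Cox8b was called after quantile normalisation at -1.75 (adjusted p = 0.0257).

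Cox7b2, a testis form, was the highest gene of the complex and of all 47, at -1.04, 1.51 and 2.39 SD in high-fat mice, against -1.40, -0.02 and 1.51 SD in low-fat mice. The difference was 1.19 (95% interval 0.22 to 2.13, adjusted p = 0.229) and the groups overlapped. The remaining structural subunits differed by -1.29 (Cox5a), 0.65 (Cox5b), 0.07 (Cox6b1), -0.94 (Cox6c), -0.69 (Cox7c) and -0.12 (Cox8c, another testis form). Cox5a had an adjusted p of 0.146.

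ATP synthase had 1 call among 17 genes, a lower one, where 1.78% of all genes were called lower. Of the 17 genes, 14 lay below the low-fat mean, and the median was -0.38. After quantile normalisation 5 still varied, with Atp5e, Atp5g2 and Atp5o below the low-fat mean and Atp5md and Atp5mpl above it. The genes of the catalytic head and its central stalk ran from -0.39 to 0.20 with the probe sets used. Atp5a1 differed by 0.01, Atp5b by 0.20, Atp5c1 by -0.06, Atp5d by -0.13 and Atp5e by -0.39. For Atp5d another probe set, at a score of 11.26, gave -1.24 (adjusted p = 0.162 in the fit of every probe set). The mean of its probe sets gave -0.82 (adjusted p = 0.375). A second probe set of Atp5c1, at a score of 6.893, gave -1.99 (adjusted p = 0.0202 in the fit of every probe set), and the mean of both gave a call at -1.97 (adjusted p = 0.0149).

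Subunit c forms the ring that turns as protons pass, and all 3 of its genes encode the same mature protein behind different import signals. Atp5g2 lay at -2.62, -0.78 and 1.30 SD in high-fat mice, against -0.95, -0.25 and 1.29 SD in low-fat mice, a difference of -0.69 (adjusted p = 0.468). Atp5g3 lay at -1.71, -0.51 and 0.69 SD in high-fat mice, against -1.40, -0.32 and 1.84 SD in low-fat mice, a difference of -0.59 (adjusted p = 0.931). All 3 were below the low-fat mean, and so was Atp5g2, the only 1 that still varied, after quantile normalisation. Atp5g1 alone was called. The differences between these genes were not tested.

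The peripheral stalk holds the head still. Its Atp5o, the subunit that confers oligomycin sensitivity, lay at -3.71, -1.37 and -0.34 SD in high-fat mice, against -1.06, -0.20 and 2.28 SD in low-fat mice. Of the high-fat mice, 7 were below every low-fat mouse. The difference of -1.58 (95% interval -2.58 to -0.55) missed the threshold at an adjusted p of 0.0571 and passed it in the exact Wilcoxon rank sum test at 0.0306, with array weights at 0.0442 and with arrays centred at 0.0482. It also passed without high-fat mouse 10 (0.0486) and without low-fat mouse 1 (0.0476). After quantile normalisation Atp5o was -0.40 (adjusted p = 0.593), with the spike-in covariate -1.27 (adjusted p = 0.157) and with the replicate number as a block -1.26 (adjusted p = 0.185). Sizes with the covariate or the block are rescaled t statistics of those fits. The other stalk subunits differed by -0.64 (Atp5pb), -0.38 (Atp5h) and -0.32 (Atp5j). A second probe set of Atp5h, at a score of 11.7, gave -1.34 (adjusted p = 0.125 in the fit of every probe set). The mean of both gave -1.28 (adjusted p = 0.123).

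The small membrane subunits, several of which hold ATP synthase dimers together, ran from -0.58 to 1.10. Atp5k, the e subunit at the dimer interface, was the highest gene of the complex, at 0.06, 1.05 and 2.58 SD in high-fat mice, against -2.48, -0.07 and 2.19 SD in low-fat mice. All 10 high-fat mice were above the low-fat median, but the groups overlapped, with a difference of 1.10 (95% interval 0.14 to 2.03, adjusted p = 0.196). Its 3 probe sets gave 1.04 to 1.13. The others differed by -0.57 (Atp5j2), -0.15 (Atp5l), -0.09 (Atp5md) and -0.58 (Atp5mpl). Other probe sets of Atp5j2, at scores of 12.06 and 7.386, gave -1.05 and 0.49, neither called.

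**Figure D3:**
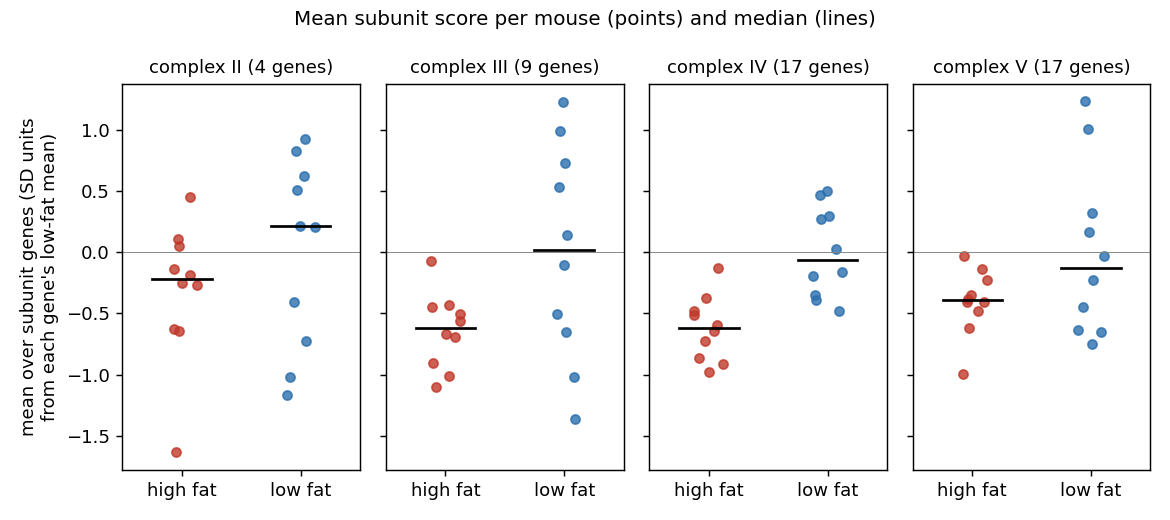
Mean over the genes of each complex in each mouse (SD units from the low-fat mean, vertical axis), high-fat mice left of low-fat mice, with a line at the median. Complex IV has the least overlap, with 8 high-fat mice below every low-fat mouse.

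Averaged per mouse, the complexes overlapped between diets. Complex III lay at -1.10, -0.62 and -0.07 SD in high-fat mice, against -1.36, 0.02 and 1.23 SD in low-fat mice. Complex V lay at -0.99, -0.39 and -0.03 SD in high-fat mice, against -0.75, -0.13 and 1.24 SD in low-fat mice. Complex IV lay at -0.98, -0.62 and -0.13 SD in high-fat mice, against -0.48, -0.07 and 0.50 SD in low-fat mice, and 8 high-fat mice were below every low-fat mouse. Without Cox7a1, complex IV lay at -0.87, -0.40 and 0.11 SD in high-fat mice, against -0.49, 0.02 and 0.55 SD in low-fat mice, and 4 high-fat mice were below every low-fat mouse. Over all 47 genes, the 10 high-fat mice were all below the low-fat median and 2 were below every low-fat mouse. These means are descriptions and carry no test.

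Probe sets of the same gene did not always point the same way. The 47 genes had 92 probe sets, of which 66 lay below the low-fat mean. In a fit of every probe set, 8 of the 92 were lower past the threshold and 0 higher, where 2.32% of all probe sets were called, 1.2% as lower and 1.11% as higher. Of the 29 genes with several sets, 16 were lower in all of them, 2 (Cox5b and Atp5k) were higher in all, and 11 were mixed. The remaining 18 genes, Cox7a1 and Cox6b2 among them, had 1 set.

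**Figure D4:**
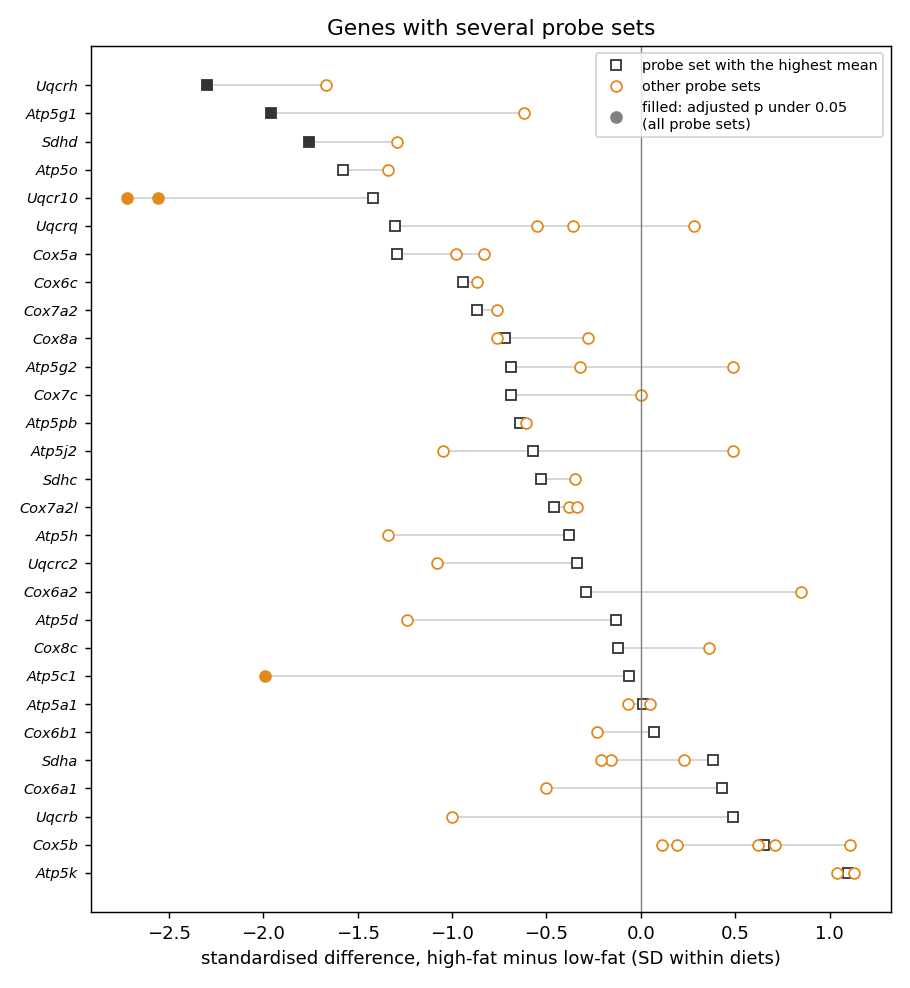
Standardised difference (SD units, high-fat minus low-fat) of every probe set of the genes that have several, 1 line per gene, with the set used for the gene marked. Uqcr10 and Atp5c1 each have a set past the threshold that is not the set used, at -2.72, -2.56 and -1.99.

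Genes that work beside these complexes were read from the same fit, in which 1.78% of all genes were called lower and 1.71% higher. Complex I passes electrons from NADH to coenzyme Q. Of 35 genes listed as its subunits, Ndufa4 (-0.76) included, 2 were lower and 1 was higher, with a median of -0.30. Ndufa6 lay at -3.99, -2.39 and -0.35 SD in high-fat mice, against -1.40, 0.05 and 1.23 SD in low-fat mice, a difference of -2.18 (adjusted p = 0.0115), or -0.45 after quantile normalisation (adjusted p = 0.54). Ndufa5 differed by -1.64 (adjusted p = 0.0443), a call kept only without high-fat mouse 4 or 9 or low-fat mouse 1 or 5, and otherwise lost at 0.0511 to 0.0759 when 1 mouse was left out, and after quantile normalisation it was -0.52 and not called. Ndufb3 lay at 0.47, 2.05 and 4.01 SD in high-fat mice, against -1.43, -0.05 and 1.73 SD in low-fat mice, a difference of 2.19 (adjusted p = 0.00828) that was -1.34 after quantile normalisation. The single mitochondrially encoded subunit measured, ND5 of complex I, differed by -0.35 (adjusted p = 0.759).

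Of 37 assembly factors, 2 were higher and 1 was lower, with a median of -0.24. Coa5, which helps assemble complex IV, differed by -1.88 (adjusted p = 0.0215). Higd1a, a hypoxia-induced protein that binds complex IV, differed by 1.79 (adjusted p = 0.0279), and Ttc19, which serves complex III, by 1.75 (adjusted p = 0.0314), or 1.00 after quantile normalisation (adjusted p = 0.148). Coa5 and Higd1a no longer varied after quantile normalisation. With the mean of each gene's probe sets, Coa5 was -0.31 (adjusted p = 0.782) and Higd1a 1.20 (adjusted p = 0.145). Without 1 mouse, Higd1a was lost in 5 of 20 fits at up to 0.0537 (high-fat mouse 1, 4 or 6, or low-fat mouse 5 or 8) and Ttc19 in 9 at up to 0.0565 (high-fat mouse 1, 4, 8 or 9, or low-fat mouse 2, 5, 7, 9 or 10). Among 15 genes of cytochrome c and coenzyme Q synthesis, 1 was higher: Coq3, a methyltransferase of coenzyme Q synthesis, differed by 1.73 (adjusted p = 0.0333), or by -0.55 after quantile normalisation. That call was lost in 10 of 20 fits at up to 0.0618 (without high-fat mouse 4, 5, 6, 8, 9 or 10, or low-fat mouse 4, 5, 8 or 9).

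The remaining lists held 0 calls. The smallest adjusted p among 12 citric acid cycle genes was that of Fh1, fumarate hydratase, at 1.02 (adjusted p = 0.232). Among 11 carriers and channels of the mitochondrial membranes it was Vdac1, a porin, at -1.15 (adjusted p = 0.173). Among 19 regulators of mitochondrial gene expression it was Mterf3, a repressor of mitochondrial transcription, at 1.46 (adjusted p = 0.0713), and the coactivator Ppargc1a differed by -0.15. Medians of these 3 lists were 0.14, 0.15 and 0.01, against 0.04 over all genes.

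**Figure D5:**
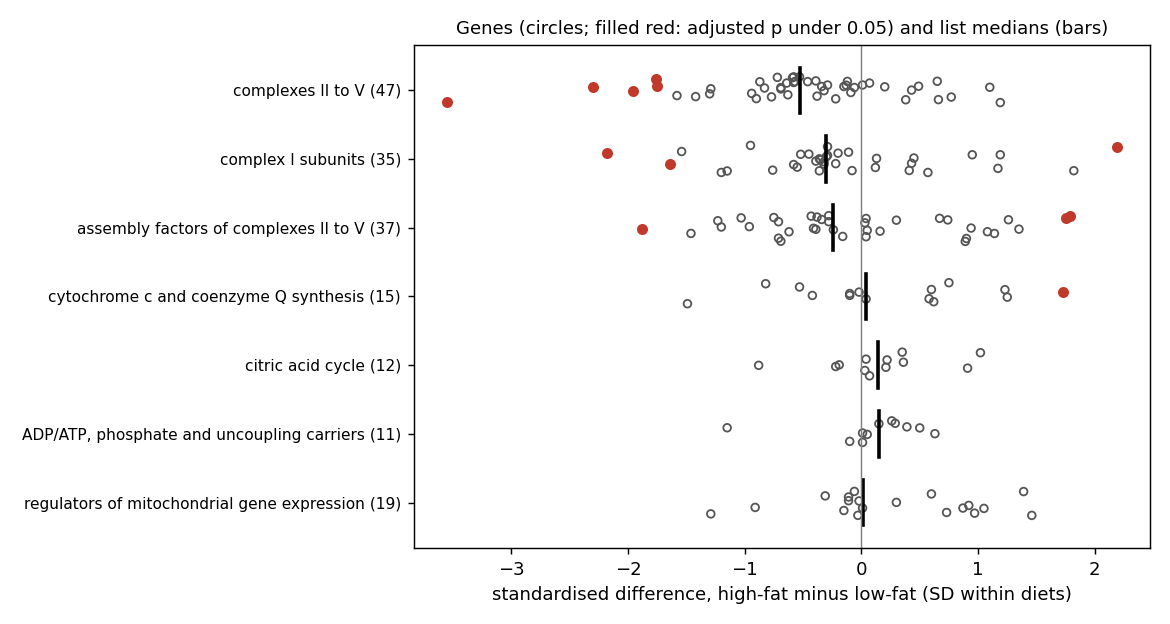
Standardised differences (SD units, high-fat minus low-fat) of the genes of complexes II to V and of each neighbouring list, 1 point per gene, with the median marked and called genes filled. Complexes II to V have a median of -0.53 and the complex I list of -0.30, and both are computed on the scores as deposited.

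Markers of the tissue and of other cells were checked in the same fit. The 7 hepatocyte markers measured had scores of 11.49 to 14.82 and 0 calls. Ttr, the thyroid hormone carrier transthyretin, nevertheless separated the diets: its values were -3.81, -3.34 and -2.09 SD in high-fat mice, against -1.66, -0.01 and 2.41 SD in low-fat mice. Every high-fat mouse was below every low-fat mouse, and the difference of -3.12 had an adjusted p of 0.224. The SD of Ttr within diets was 5.02e-07, and the moderation in the limma fit raises the p-values of genes with SDs this small. Sdhd, Uqcrc1 and Cox4i1, the genes given to mark these complexes, had scores of 11.53, 11.33 and 12.79. Of the lists for adipocytes, macrophages, lymphocytes, stellate, endothelial, bile duct and red blood cells, 0 genes were called. Of 6 pancreatic acinar markers, Cela1 alone was called, higher at 1.80 (adjusted p = 0.0265), where 1.71% of all genes were called higher.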

How the data were processed

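Livers of 20 mice were measured, 1 array each. The authors deposited 1 score per probe set and array, made by steps not given in the sources used here. Per the labels' protocols, a 3' labelling kit was used. The median SD of a score over the 20 arrays was 1.17e-05. Of 45037 probe sets that are not controls, 34945 had 1 gene symbol in the platform annotation, 932 had several and 9160 none. By gene identifier, 34741 matched the GRCm38.p6 gene table. The 64 controls were left out of the gene fit. No filter on low values was used, and the number of arrays limits the precision.

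The fit used lmFit and eBayes of limma 3.58.1 under R 4.3.3, with diet as the single term (two-sided, Benjamini-Hochberg adjustment over 18193 genes, threshold 0.05). The fitted prior had 0.724 degrees of freedom. Moderation draws the variance of each gene towards a common one, so genes with very small SDs are called less easily. Without moderation the same 5 genes were called, while the adjusted p of Uqcrfs1 went from 0.715 to 0.373 and that of Atp5g3 from 0.931 to 0.552. Intervals at 95% used the noncentral t distribution (SciPy 1.17.1). Fold changes are not given because the scores are compressed.

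The members and lists were chosen with earlier results of these data known. Every member is named, with values by diet for the called genes, the highest and lowest of each complex, complex II, Uqcrc1, Cox4i1 and the isoform sets; from each list, called genes or otherwise the gene with the smallest adjusted p. Atp5o and Uqcr10 are given in full and Ucp1, Ppargc1a and Ttr are named outside that rule, chosen after their values were seen. Alternatives were quantile normalisation, array centring, the genes with higher means, robust fitting with a variance trend, no moderation, weights for arrays, a block for the replicate number, leaving out probe sets that can match several transcripts, averaging the probe sets of a gene, testing every probe set, an exact Wilcoxon test, a threshold of 0.01 and leaving out each array. The poly-A spike-in covariate and the fit without arrays whose spike-in mean was under -1 SD were added after seeing the data.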

Additional observations from a re-analysis of the deposited data

Results flagged for a closer look

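In each gene and diet, the gap between the most extreme mouse and the next one was divided by the range of the 10 mice. It exceeded Dixon's 95% critical value in 7 of 94 groups tested, where chance flags about 1 in 20 groups, or 4.7 of 94. Low-fat mouse 9 was far below the others in 3 genes: Cox7a2 (gap 0.673 of the range), Atp5md (0.627) and Atp5e (0.617). Without that mouse their differences were -2.08 (adjusted p = 0.18), -0.75 (adjusted p = 0.445) and -1.09 (adjusted p = 0.235). Low-fat mouse 4 was high for Atp5o (0.564), which had -1.56 without it (adjusted p = 0.0753). High-fat mouse 4 was high for Uqcrc1 (0.502), which had 0.65 without it (adjusted p = 0.526). High-fat mouse 10 was low for Sdha (0.496), which had 0.91 without it (adjusted p = 0.344). High-fat mouse 9 was high for Atp5c1 (0.474), which had -0.30 without it (adjusted p = 0.959).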

How the results depend on the processing

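After quantile normalisation 3 of the 19 genes that still varied were called, where 8.49% of all genes were. Of the 5 only Cox7a1 was among them, beside Cox4i2 and Cox8b. Uqcrh and Cox6b2 were then not called, and Sdhd and Atp5g1 could not be tested because they no longer varied. The 5 calls became 3 with the replicate number as a block (2.31% of all genes called) and 2 with the spike-in covariate (2.26%). There were 2 at a threshold of 0.01 (1.17%) and 1 without the 4 arrays low in spike-ins (1.03%). Other settings gave more: 6 with arrays centred (3.64%), with array weights (3.8%) or without probe sets that can match several transcripts (3.37%). Averaging probe sets within genes gave 7 (3.83%). Without 1 mouse, 3 to 7 genes were called, where 2.74% to 3.96% of all genes were. The count was 3 without high-fat mouse 1, 4 or 6 or low-fat mouse 3, 6 or 10, and 7 without low-fat mouse 1. In those fits, 34 to 38 of the 47 genes lay below the low-fat mean. Cox7a1 was called under every alternative that tested it (the genes with higher means left it out), and Uqcrh under each but the fit without those 4 arrays and quantile normalisation, where it reversed to 0.19. In the neighbouring lists, 7 calls became 11 among genes in the upper part by mean, where the share over all genes also went up (8.3%, against 3.49%), 2 with the spike-in covariate, 1 without those 4 arrays (Ndufa6), 1 with the block and 1 at the 0.01 threshold, and 4 to 8 without 1 mouse (4 without high-fat mouse 1, 4, 6 or 8 or low-fat mouse 5 or 8). After quantile normalisation the lists had 6 calls, where 8.49% of all genes were called, and 0 of the 7 were among them. Coq3 reversed to -0.55 and Ndufb3 to -1.34, while Coa5 and Higd1a no longer varied and could not be tested. Where no cause is given by the construction of the alternative, the cause was not tested.

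The scores showed no pairing of the mice by replicate number: same-numbered mice correlated at -0.159 to 0.26, and 1 of 10 correlated best with its own number. Weak correlation cannot exclude a pairing. With the block, Sdhd had -1.43 (adjusted p = 0.128) and Atp5g1 -1.67 (adjusted p = 0.0843). These sizes are t statistics for diet rescaled by the group sizes, and the difference of means itself does not change with the block. The scores carry no measure of signal over background, and their compression hides the size of each change in RNA.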
